A study of Mus musculus with 3 samples.

Results

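Complement genes that fibroblasts make were described in cultured mouse dermal fibroblasts of 3 Fgfr3 genotypes. The set listed 9 genes, and a gene was taken if a probe set on the array was annotated to its symbol alone. This gave 4 genes with 5 probe sets, out of 7843 named genes: C1ra, Serping1, Cd55 and Clu. The other 5 were skipped: C3, Cfb, Cfd, C1s1 and C4b were not analysed here. The C1q chains were left out of the set by its definition and appear below only as context.

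The study compared an active and a non-functional receptor with the wild-type gene, 1 array column per genotype. FGFR3Act cells carried Fgfr3 with the G374R change and no neo cassette, an allele meant to signal without ligand, which was not measured here. FGFR3KO cells carried the G374R allele with the neo cassette still in place and, per the labels, have no working Fgfr3. FGFR3WT cells were from wild-type Bl6 mice. All cells were untreated and grown in fibroblast medium. The labels give no age, and no strain background for the mutants. The series states n = 3 per group, but whether a column is a pool, a mean or a single culture is not given, so every difference below is between arrays, with no replicate error and no test.

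Complement is a cascade of plasma proteases that marks surfaces for uptake and can end in a pore through a membrane. In the classical pathway C1q binds a target and activates the proteases C1r and C1s, which cleave C4 and C2, and inhibitors hold each step in check. The liver makes most of the plasma protein, while skin fibroblasts also secrete C1r, C1s and C1 inhibitor, and macrophages make C1q.

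Values are MAS5 signals, linear intensities with 1 value per probe set and array. Low MAS5 signals are noisy and no detection calls were used, so the 40th percentile of each array served as a floor, at 123 in FGFR3Act, 122 in FGFR3KO and 121 in FGFR3WT, and any lower signal was set to it before the log2 step. A fold against an array below the floor is a lower bound. The signal of the targeted gene, Fgfr3, was 2.42 in FGFR3Act, 3.76 in FGFR3KO and 1.06 in FGFR3WT, below the floor on all 3 arrays, so it could not check the genotypes.

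Across the 3 genotypes, C1ra, Serping1 and Clu had signals above the floor on every array, and Cd55 only in FGFR3Act. None of the 4 genes was at least 2-fold apart in any of the 3 pairs of arrays, though Cd55 has only a lower bound in the pairs with FGFR3Act. Among all genes, 8.92% of 5246 were at least 2-fold apart between FGFR3Act and FGFR3WT, 5.55% of 5186 between FGFR3KO and FGFR3WT and 15.8% of 5299 between FGFR3Act and FGFR3KO. With so few genes, a count of 0 lies near what these shares give and says nothing particular about complement. The bars of signal by genotype show the pattern: Serping1 and Clu lowest in FGFR3Act, and Cd55 highest there.

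**Figure D1:**
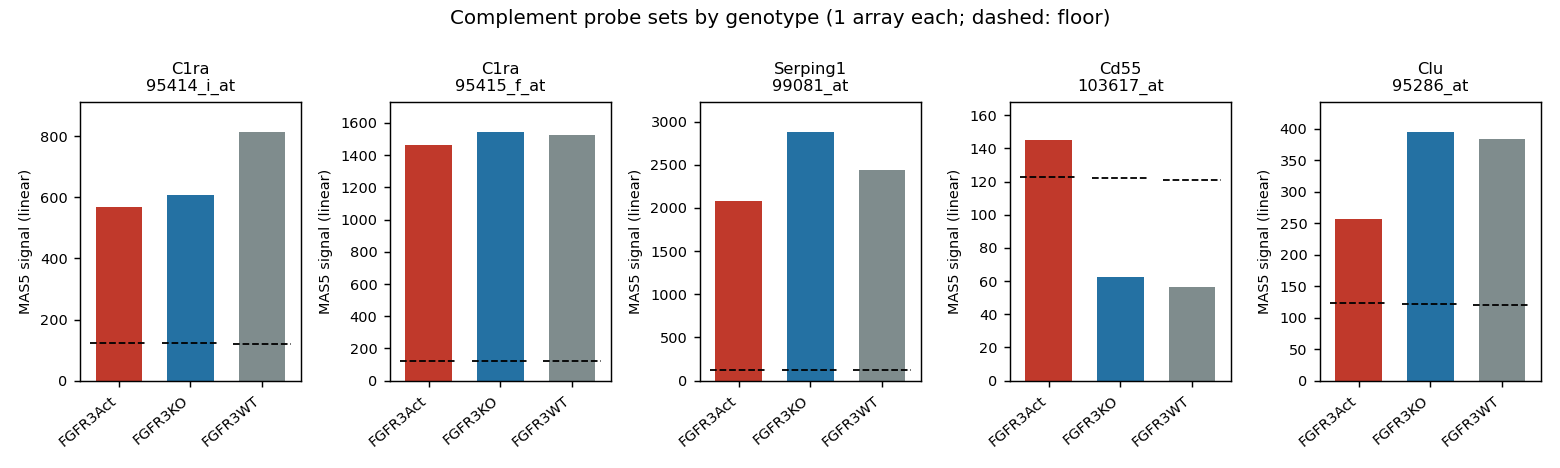
MAS5 signal (linear, y axis from 0, a separate scale in each panel) of the 5 probe sets on the FGFR3Act, FGFR3KO and FGFR3WT arrays, 1 array per bar, with the floor of each array as a dashed line. Clu had a signal of 256 in FGFR3Act against 384 in FGFR3WT, and Cd55 exceeded the floor in FGFR3Act alone.

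Of the cascade's components, C1ra was the only gene of the set with a probe set annotated to its symbol alone. It encodes C1r, the protease that activates itself in the C1 complex and then cleaves C1s. Its brighter probe set, 95415_f_at, had signals of 1462 in FGFR3Act, 1545 in FGFR3KO and 1527 in FGFR3WT. These are log2 differences of -0.06 for FGFR3Act against FGFR3WT, 0.02 for FGFR3KO against FGFR3WT and -0.08 for FGFR3Act against FGFR3KO. Only 9.25% of genes had a smaller difference in size in the first pair and 2.97% in the second, so the 3 arrays carried nearly the same C1ra signal by this probe set.

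The dimmer C1ra probe set, 95414_i_at, placed the wild-type array apart. Its signals were 569 in FGFR3Act and 607 in FGFR3KO, against 815 in FGFR3WT. Both mutants lay below wild type, with log2 differences of -0.52 for FGFR3Act and -0.42 for FGFR3KO. The 2 probe sets of C1ra thus disagreed by 0.46 on the log2 scale for FGFR3Act against FGFR3WT and by 0.44 for FGFR3KO against FGFR3WT. Such gaps are common on these arrays: over 426 genes with 2 probe sets above the floor, the median gap between the differences for FGFR3Act against FGFR3WT was 0.30 and the 90th percentile 0.88. In probe set names of this array generation, the letter f marks probes shared within a sequence family and i marks an incomplete set of probes. Mouse also carries C1rb, a close copy of C1ra, and its part in these signals was not tested.

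Serping1 encodes C1 inhibitor, the serpin that removes C1r and C1s from the C1 complex and also restrains kallikrein of the contact system. Its signals were 2086 in FGFR3Act, 2882 in FGFR3KO and 2439 in FGFR3WT. The wild-type array lay between the mutants. The log2 difference was -0.23 for FGFR3Act against FGFR3WT, 0.24 for FGFR3KO against FGFR3WT and -0.47 for FGFR3Act against FGFR3KO. In the last pair Serping1 was 1.38-fold lower in FGFR3Act, and 51.9% of genes had a smaller difference in size. The direction was the same under all 10 processing alternatives in each pair. Only quantile, cyclic loess or median scaling and an offset of 16 could move the values, as this bright gene has 1 probe set. The differences from wild type were smaller than the median gap between probe sets of a gene, 0.30 for FGFR3Act and 0.39 for FGFR3KO. The difference for FGFR3Act against FGFR3KO was a little larger than the median gap of that pair (0.43) and below its 90th percentile (1.26).

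Clu encodes clusterin, a secreted chaperone that binds the assembling terminal complex and keeps it out of membranes, and that also carries lipid and misfolded protein. Its signals were 256 in FGFR3Act, 395 in FGFR3KO and 384 in FGFR3WT. FGFR3Act was the low array, and FGFR3KO and FGFR3WT were close together. Clu was 1.50-fold lower in FGFR3Act than in FGFR3WT, a log2 difference of -0.58, and 72.2% of genes differed by less. Against FGFR3KO it was 1.54-fold lower in FGFR3Act, a log2 difference of -0.63, with 64.7% of genes differing by less. FGFR3KO against FGFR3WT gave 0.04. The Clu difference from wild type in FGFR3Act was larger than the median gap between probe sets of a gene (0.30) and smaller than its 90th percentile (0.88).

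Cd55 encodes decay-accelerating factor, a membrane-anchored protein that takes apart the C3 and C5 convertases on the cell's own surface. Its signals were 145 in FGFR3Act, 62.6 in FGFR3KO and 56.4 in FGFR3WT. Only the first of these lay above the floor. Cd55 was therefore at least 1.20-fold higher in FGFR3Act than in FGFR3WT and at least 1.19-fold higher than in FGFR3KO. The ratio of the signals as deposited was 2.57 for FGFR3Act over FGFR3WT and 2.32 for FGFR3Act over FGFR3KO. With a lower floor, at the 20th percentile, the log2 difference was 1.36 for FGFR3Act against FGFR3WT and 1.21 for FGFR3Act against FGFR3KO, past 2-fold in both pairs. Cd55 entered these pairs only through its signal in FGFR3Act, so a higher value there was built into the filter.

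Cd55, the gene above the floor in FGFR3Act alone, and C1ra, the component of the set, each have an entry in the RefSeq promoter table (build GRCm38.p6), and the 250 bases before the start listed there are shown. The C1ra window ends at the outer edge of the gene in RefSeq. The Cd55 window lies inside the gene's annotated span and so precedes an inner start, and the windows are not alike in that respect. The Cd55 window is chr1:130462745-130462994 on the minus strand and the C1ra window chr6:124512371-124512620 on the plus strand, both printed 5′ to 3′. Capitals mark matches to any of 5 motifs, searched on both strands: AP-1 (letters TGANTCA), the cAMP response element CRE (letters TGACGTCA), the consensus of NF-kB, SP1 (letters GGGCGG), and the box named TATA (letters TATAAA).
Cd55: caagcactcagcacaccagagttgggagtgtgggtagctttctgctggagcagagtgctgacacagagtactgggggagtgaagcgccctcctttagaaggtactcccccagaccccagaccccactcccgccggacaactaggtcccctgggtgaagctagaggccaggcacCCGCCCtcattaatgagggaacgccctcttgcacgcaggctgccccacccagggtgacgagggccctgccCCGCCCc
C1ra: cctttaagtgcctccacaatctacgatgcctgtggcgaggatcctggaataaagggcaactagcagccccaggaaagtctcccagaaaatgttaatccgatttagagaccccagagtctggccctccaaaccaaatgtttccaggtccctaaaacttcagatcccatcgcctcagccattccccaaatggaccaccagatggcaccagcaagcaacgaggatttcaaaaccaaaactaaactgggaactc

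The Cd55 window held 2 matches to SP1, both on the opposite strand, which begin 77 and 7 bases before the start and do not overlap. It held no match to the other 4 motifs, and the C1ra window none to any of the 5. Among 32851 windows of equal length in the table, 32.7% held the SP1 letters, 12.4% the TATA letters, 6.75% those of AP-1, 3.90% the NF-kB consensus and 1.55% those of CRE. The GC share was 64% in the Cd55 window and 49.6% in that of C1ra. A match describes letters in a sequence and is not a bound site.

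Set against all genes, C1ra, Serping1 and Clu lay within 2-fold in every pair, while Cd55, a lower bound in the pairs with FGFR3Act, cannot be placed. With Cd55 at its bound, the median log2 difference of the 4 genes was -0.14 for FGFR3Act against FGFR3WT, where the median of all genes was -0.07. It was -0.27 for FGFR3Act against FGFR3KO, against -0.05 for all genes. For FGFR3KO against FGFR3WT, where Cd55 was below the floor on both arrays, the 3 remaining genes had a median of 0.04, against -0.02. These pairs share arrays and are not independent of each other.

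**Figure D2:**
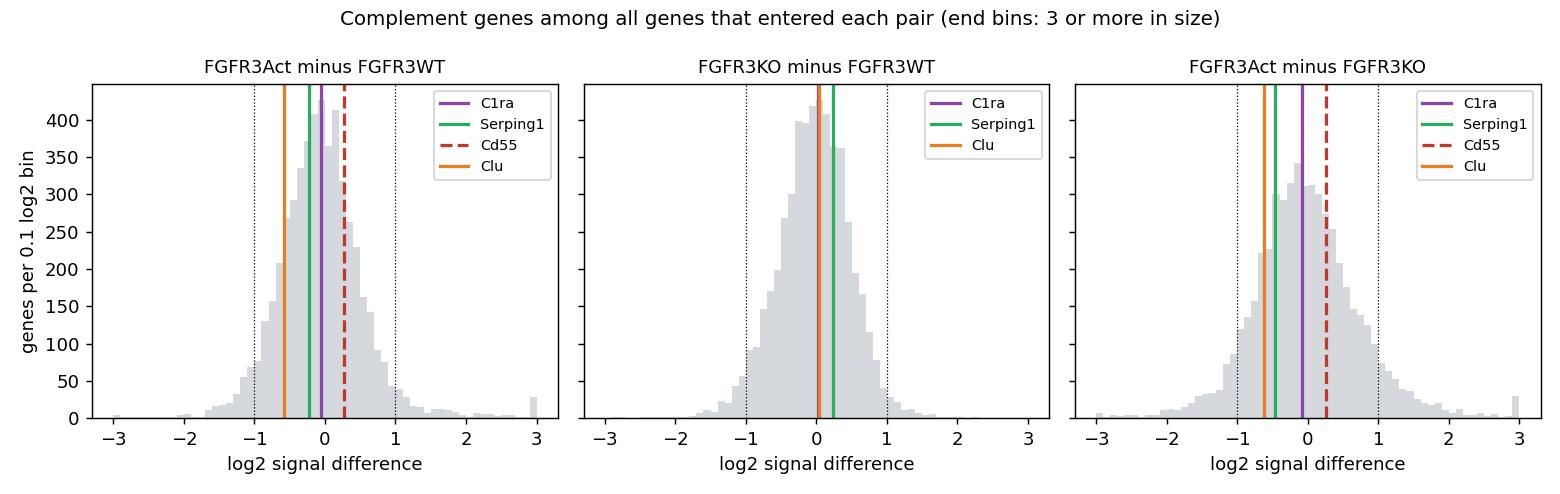
Histograms of the log2 signal difference (x axis, bins of 0.1) over all genes that entered each pair of arrays, with vertical lines for C1ra, Serping1, Cd55 (dashed, a lower bound) and Clu and dotted lines at 2-fold. The lines of C1ra, Serping1 and Clu and the bound of Cd55 lie between the dotted lines, and in FGFR3KO minus FGFR3WT the C1ra line (0.02) is covered by that of Clu (0.04).

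The FGFR3Act array differed from the other arrays in its cell markers. Of 18 macrophage markers on the array, 16 were above the floor in FGFR3Act, 1 in FGFR3KO and 1 in FGFR3WT, with summed signals of 40954, 1531 and 1300. Lysozyme (Lyz2), which macrophages secrete, had signals of 7037 in FGFR3Act, 48.2 in FGFR3KO and 51.4 in FGFR3WT. The defining genes Cd68, Csf1r and Adgre1 were below the floor in FGFR3KO and FGFR3WT. Of 14 fibroblast markers, 13 were above the floor on each array, with summed signals of 63090 in FGFR3Act, 94762 in FGFR3KO and 69620 in FGFR3WT, and of the 13 that entered, 3 were higher and 10 lower in FGFR3Act than in FGFR3WT (median log2 difference -0.42), while 7 were higher and 6 lower in FGFR3KO than in FGFR3WT (median 0.07). The fibroblast collagen gene Col1a2 had signals of 10606 in FGFR3Act, 18306 in FGFR3KO and 11799 in FGFR3WT. Pdgfra, a receptor that marks fibroblasts, had 1626 in FGFR3Act, 2181 in FGFR3KO and 2818 in FGFR3WT. Clu and Serping1 were lower in FGFR3Act than in FGFR3WT, as most fibroblast markers were, where the median of all genes was -0.07. C1ra gave -0.06 by its brighter probe set and -0.52 by the dimmer. Cd55 was higher in FGFR3Act than in FGFR3WT, as were the macrophage markers and the 4 adipocyte markers that entered. Cd55 and all but 1 of the macrophage markers that entered did so through FGFR3Act alone, and the part of cell makeup in any of these differences was not tested. In such bulk RNA, fewer cells of a type and less RNA per cell cannot be told apart. Of 10 adipocyte markers, 4 were above the floor in FGFR3Act, 3 in FGFR3KO and 3 in FGFR3WT, with summed signals of 3835, 2994 and 2731, and all 4 that entered were higher in FGFR3Act than in FGFR3WT (median log2 difference 0.42). Against FGFR3KO, 3 of these 4 were higher in FGFR3Act and 1 lower. Fabp4, a fatty acid carrier of adipocytes and macrophages, was above the floor in FGFR3Act alone and entered through that array. The adipocyte hormone gene Adipoq was below the floor on all 3 arrays. Keratinocyte markers were above it for 0, 1 and 0 of 5 genes in FGFR3Act, FGFR3KO and FGFR3WT, and endothelial markers for 0 of 6 on each.

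Other genes of the pathway were grouped by role. Of 44 listed, 26 were on the array, and 15 of these were below the floor on all 3 arrays. Those 15 were all 3 recognition lectins (Mbl1, Mbl2 and Fcna), their proteases Masp1 and Masp2, the terminal components Hc, C8g and C9, the soluble regulators Cfi, C4bp, Vtn and Cpn1, the membrane regulator Cd46, and the receptors Cr2 and Itgam. Between FGFR3Act and FGFR3WT 5 of the 10 genes that entered were higher by 2-fold or more and 0 lower by as much, beside 4.14% and 4.78% of all genes. Between FGFR3Act and FGFR3KO it was 5 of 11 and 0, beside 8.32% and 7.51%. These 5 were above the floor in FGFR3Act alone, so the filter admitted them through that array.

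The 5 were 4 receptors and 1 soluble regulator. C3ar1, the receptor for the anaphylatoxin C3a, had signals of 1268 in FGFR3Act, 16.2 in FGFR3KO and 24.3 in FGFR3WT, at least 10.5-fold above wild type. Itgb2, the shared beta chain of the complement receptor integrins, had 610 in FGFR3Act, 23.2 in FGFR3KO and 33.5 in FGFR3WT, at least 5.05-fold above wild type. Its partner Itgax was at least 2.39-fold higher in FGFR3Act than in FGFR3WT, and Cd93, a surface glycoprotein of myeloid and endothelial cells, at least 3.56-fold. Properdin (Cfp), which stabilises the alternative convertase, had 428 in FGFR3Act, 31.2 in FGFR3KO and 16.8 in FGFR3WT. The C1q chains C1qa, C1qb and C1qc were at least 11.1-fold higher in FGFR3Act than in FGFR3WT and below the floor on the other arrays. All of these genes are also expressed by macrophages, and the part of cell makeup in their signals was not tested.

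C2, the protease that pairs with a fragment of C4 in the convertase, was close to the 2-fold threshold. It had signals of 239.9 in FGFR3Act, 115.03 in FGFR3KO and 93.3 in FGFR3WT, at least 1.99-fold above wild type. For FGFR3Act against FGFR3WT its log2 difference passed 2-fold with median centring (1.01), the 20th-percentile floor (1.36) and the offset (1.23), and for FGFR3Act against FGFR3KO with cyclic loess and with the 20th-percentile floor (1.06 in each). C5ar1, the receptor for C5a, was above the floor on every array, with signals of 247 in FGFR3Act, 209 in FGFR3KO and 155 in FGFR3WT. C1qtnf1, a secreted protein with a C1q-like domain, had 51.7 in FGFR3Act, 135 in FGFR3KO and 109 in FGFR3WT, above the floor in FGFR3KO alone.

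Unlike Cd55, the 3 other membrane regulators with a signal above the floor had one on every array. Cd59a, which blocks the last step of pore assembly, had signals of 1609 in FGFR3Act, 1270 in FGFR3KO and 2043 in FGFR3WT. Cr1l, the rodent regulator Crry that acts on C3 convertases, had 674 in FGFR3Act, 440 in FGFR3KO and 696 in FGFR3WT. In both genes FGFR3KO was the low array, with log2 differences from FGFR3WT of -0.69 for Cd59a and -0.66 for Cr1l, short of 2-fold. Cd59b had 222 in FGFR3Act, 217 in FGFR3KO and 194 in FGFR3WT. Between FGFR3KO and FGFR3WT 0 of the 5 other complement genes that entered were at least 2-fold apart, beside 1.93% of all genes higher in FGFR3KO and 3.63% lower.

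**Figure D3:**
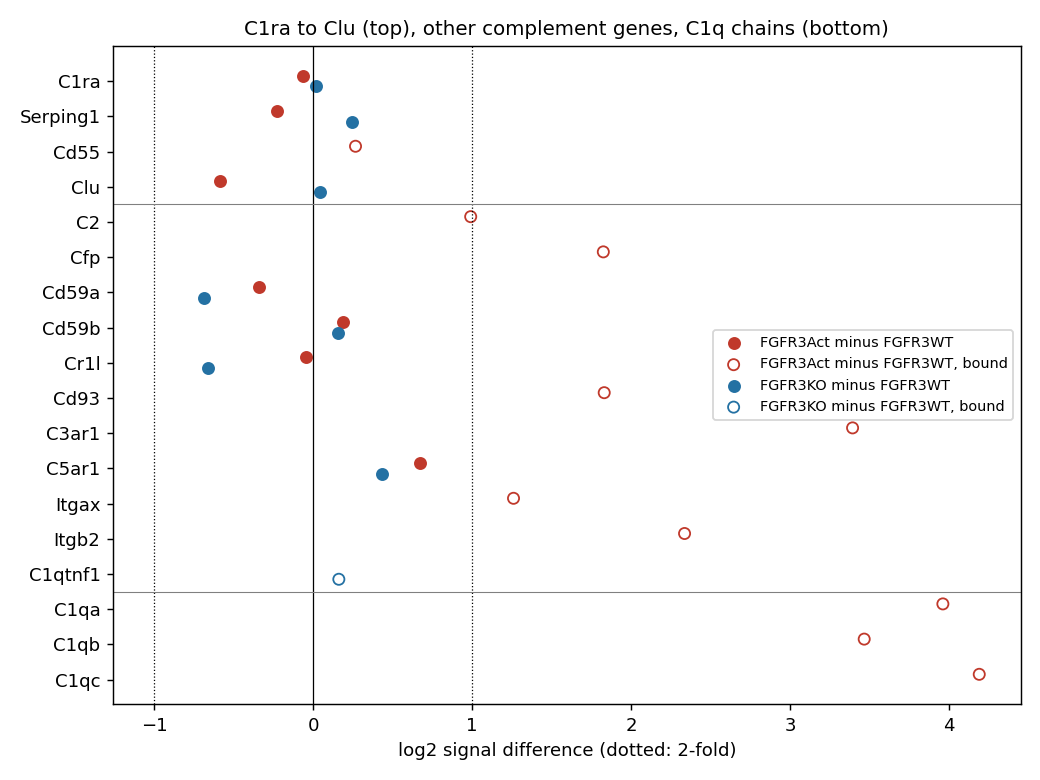
Log2 signal difference (x axis, dotted lines at 2-fold) of each complement gene above the floor on at least 1 array of a pair, for FGFR3Act minus FGFR3WT (red) and FGFR3KO minus FGFR3WT (blue), with open circles for bounds. For FGFR3Act minus FGFR3WT, Cfp, the C1q chains and the receptors other than C5ar1 (0.67) lie past 2-fold, and C2 (0.99) just short. C1ra, Serping1, Cd55 and Clu lie between -0.58 and 0.27.

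The plot of values under other processing settings shows how far each difference depended on them. C1ra stayed between -0.29 and -0.002 for FGFR3Act against FGFR3WT, Serping1 between -0.24 and -0.21, and Clu between -0.58 and -0.20. Cd55 ranged from 0.23 to 1.36, so its size was set by how low signals were treated. It had no value with the floor at the 60th percentile or with both arrays required above the floor.

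**Figure D4:**
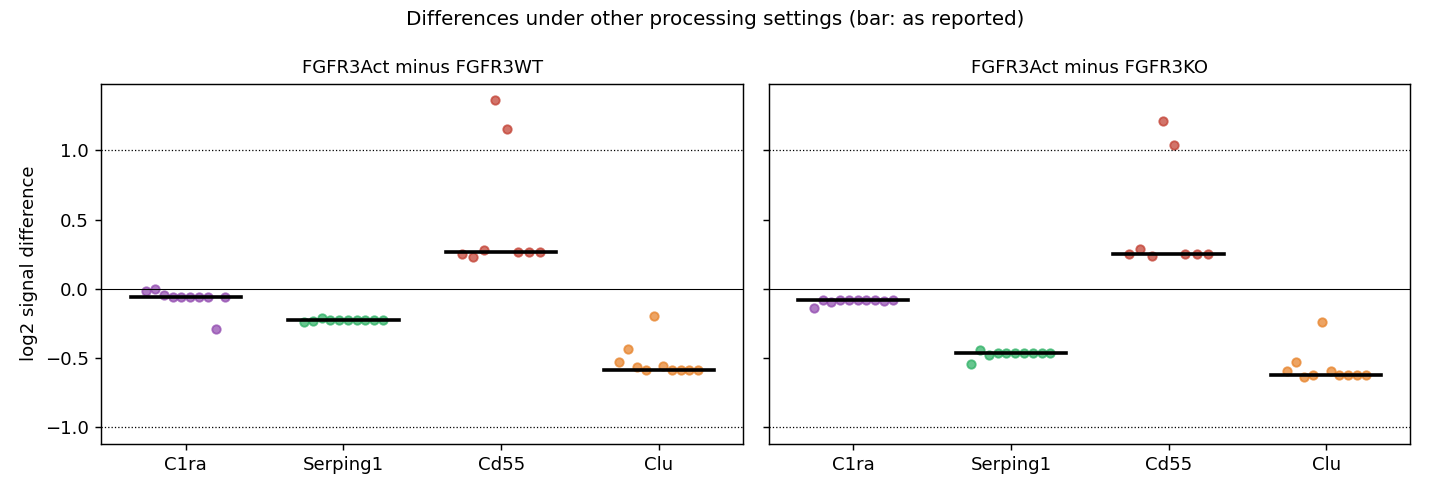
Log2 signal difference (y axis, dotted lines at 2-fold) of C1ra, Serping1, Cd55 and Clu for FGFR3Act minus FGFR3WT and FGFR3Act minus FGFR3KO, with a bar for the reported value and a point for each processing alternative that gave a value. Cd55 passed 2-fold with the lower floor and with an offset of 16 added to signals not floored, and the other 3 genes under no alternative.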

How the data were processed

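RNA was labelled from 15 μg per sample and hybridised to 1-colour Affymetrix arrays. The series holds 3 samples, 1 per genotype, and each is 1 deposited column, called an array here. Whether a column is a pool, a mean or a single culture is not given. The deposited values are linear intensities made with MAS5, per the submitters' processing notes; neither its version nor its scaling target is stated in the sources used here. Trimmed means (2% off each end) were 613 on FGFR3Act, 606 on FGFR3KO and 614 on FGFR3WT. Precision is limited by the number of arrays.

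Of 9889 probe sets, 9053 had 1 gene symbol in GEO's platform annotation, 323 had several and the rest, controls included, none; 9041 of the 9053 were matched by gene ID to RefSeq (GRCm38.p6). Where a gene had several probe sets, the brightest on average over the arrays (log2) stood for it. Signals were raised to each array's 40th percentile of non-control probe sets, and a gene entered a pair if above it on at least 1 array. With 1 array per group no test was run, and 2-fold is a rule of size. The members and lists were chosen with earlier results of these data known. All found members were named, with every other complement gene at least 2-fold apart and the 6 brightest of the rest; those named only as below the floor complete a count. A rule to name genes of like pattern applied to members at least 2-fold apart, of which there were 0. The arithmetic was tested on simulated arrays. Alternatives were quantile, cyclic loess (limma 3.58.1) and median scaling, floors at the 20th and 60th percentiles, an offset of 16, 2 other filters, the mean over probe sets, and leaving out the _s_ and _x_ kinds. Python 3.11.15 was used.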

Additional observations from a re-analysis of the deposited data

How the results depend on the processing

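No paired analysis was possible because each genotype has 1 array, and leaving out an array only removes the pairs it belongs to. A median was counted as unmoved where it shifted by less than the median gap between probe sets of a gene, which held for the medians of the 4 genes in every pair and alternative. The count of these genes at least 2-fold apart was 0 in each pair, and became 1 (Cd55) for FGFR3Act against FGFR3WT and against FGFR3KO with the floor at the 20th percentile or an offset of 16. The count of other complement genes, 5 for FGFR3Act against FGFR3WT and 5 against FGFR3KO, became 8 in each pair with the floor at the 20th percentile, 1 with it at the 60th, and 0 with both arrays required above the floor, since all 5 were below it on the other array. For FGFR3KO against FGFR3WT it was 0, and 3 with the 20th-percentile floor. With that floor, 7 of the 8 were higher and 1 lower in FGFR3Act than in FGFR3WT, 6 higher and 2 lower in FGFR3Act than in FGFR3KO, and the 3 higher in FGFR3KO than in FGFR3WT. Of the 8, 6 for FGFR3Act against FGFR3WT and 7 against FGFR3KO had entered at the 40th-percentile floor, C2 among them. The count was 6 with median centring or the offset for FGFR3Act against FGFR3WT, where C2 was the added gene. For FGFR3Act against FGFR3KO it was 6 with cyclic loess, which added C2, higher in FGFR3Act (1.06). It was also 6 there with the offset, which added C1qtnf1, lower in FGFR3Act (-1.16). Clu for FGFR3Act against FGFR3WT was -0.20 under the 60th-percentile floor, which lies above its signal on FGFR3Act. C1ra for FGFR3KO against FGFR3WT turned to -0.20 with the mean over its probe sets. No scaling moved the median of all genes by over 0.1 on the log2 scale. All genes at least 2-fold apart between FGFR3Act and FGFR3WT numbered 217 higher and 251 lower, and 246 and 195 after cyclic loess. Signals near the floor limit Cd55, and absent detection calls limit every dim gene.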
